A study of Pinus pinaster with 24 samples.

Results

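Developing vessels were compared with developing cortex at the root tip of maritime pine (Pinus pinaster). The titles of the vessel samples read developing root vascular, and the word vessels stands here for that vascular tissue as captured. The seedlings had been given water, and the comparison holds 3 libraries of each tissue out of the 24 libraries of the series. The vessel libraries of experiments 1, 3 and 4 were set against the cortex libraries with the same experiment numbers, which gives 3 pairs, and no library from ammonium-treated seedlings entered the comparison. All seedlings came from Segura-Alcaraz seed, were 1 month old, spent 3 days on a nutrient solution without nitrogen, were irrigated with 80 mL of water and were sampled 24 h later. The series also holds root cap and meristem libraries and a 3 mM ammonium chloride arm. Tissue areas were cut by laser from 30 µm frozen sections and correspond only approximately to the named tissues, per the labels' protocols. The number of seedlings behind each library is not given in the sources, nor whether same-numbered libraries share plants. The p-values therefore cover variation among these libraries, part of which may be technical.

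In a young root the vascular cylinder lies at the centre and the cortex surrounds it. Precursor cells of the vascular cylinder form phloem, which carries sugars, and xylem, which carries water in cells that thicken their walls with cellulose and lignin and then die. The cortex is ground tissue through which water and ions pass on their way inward, and it stores reserves. The table names transcripts by number alone and pairs 0 of 47118 identifiers with a gene name, so neither tissue label could be checked against marker genes and no gene function is given here. In captured tissue, fewer cells of a type and less RNA per cell cannot be told apart.

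Recovered reads numbered 70562357 to 71796715 in the 3 vessel libraries and 74382625 to 77715286 in the 3 cortex libraries, so each cortex library was the deeper of its pair. Libraries of the same tissue correlated with r = 0.935 to 0.963 across transcripts on the log2 scale, and vessel with cortex libraries with r = 0.681 to 0.815. The cortex library of experiment 4 stood apart from the other cortex libraries. It correlated with the root cap library of its own experiment (r = 0.939) as closely as with cortex (0.935 and 0.946), and with the meristem library of its experiment at r = 0.920. Cortex libraries 1 and 3 reached at most 0.907 with root cap and 0.819 with meristem. The main counts and several of the list shares are also given without cortex library 4.

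In the deposited scaling, vessels and cortex differed in about as many transcripts in each direction. Of 41660 transcripts tested, 13737 (33.0%) passed the threshold, a Benjamini-Hochberg adjusted p under 0.05 in limma. Of these, 7088 (17.0% of those tested) were higher in vessels and 6649 (16.0%) were higher in cortex. The differences were larger on the cortex side, with a median log2 difference (vessels minus cortex) of 1.10 among transcripts higher in vessels and -1.46 among those higher in cortex. The median over all tested transcripts was 0.08. Values were analysed as log2(value + 1), so differences of low transcripts are understated. Without cortex library 4 the count was 18036, with 9676 higher in vessels and 8360 higher in cortex. Without experiment 1 it was 9105, without experiment 3 it was 6845 and without experiment 4 it was 13703. The split between directions depended on the scaling: vessels took 51.6% of the calls as deposited and 70.3% (12469 of 17742) when each library was divided by its own sum, which shifted the median of all transcripts by 0.22 on the log2 scale. With median-of-ratios scaling the split turned the other way, to 6041 higher in vessels (44.7%) and 7461 higher in cortex.

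**Figure D1:**
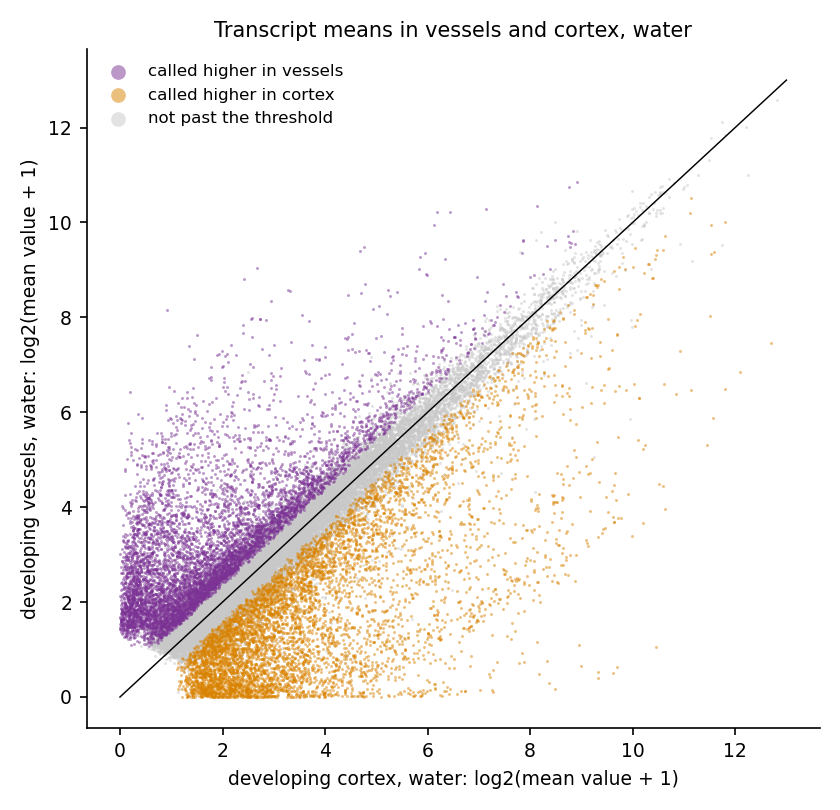
Mean level of each tested transcript in the 3 developing cortex libraries (horizontal axis) and the 3 developing vessel libraries (vertical axis), both from water-treated seedlings and as log2(mean value + 1). Purple points are the 7088 transcripts called higher in vessels, orange points the 6649 called higher in cortex and grey points the 27923 not past the threshold. The line marks equal levels. Orange points reach farther from the line than purple ones and extend to higher levels.

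On the log2(value + 1) scale, the excess on the cortex side grew with the size of the difference. At a log2 difference of at least 1, 3851 transcripts (9.24% of those tested) were higher in vessels and 4637 (11.1%) in cortex. At 2 or more the counts were 1547 and 2156. At 4 or more, 205 (0.492%) were higher in vessels and 526 (1.26%) in cortex, and at 6 or more 6 and 67. More transcripts differed by at least 4 in favour of cortex in all 22 alternative settings, scalings and libraries left out included. The ratio of cortex to vessel counts lay between 1.52 and 6.30, and its size depended on how low values were treated. It was lowest in edgeR on recovered reads (1072 in vessels and 1629 in cortex). With 4 added to each value in place of 1 it was highest (40 and 252), and with 0.1 added the counts were 849 and 1353. Without cortex library 4 the counts at 4 or more were 292 in vessels and 687 in cortex.

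**Figure D2:**
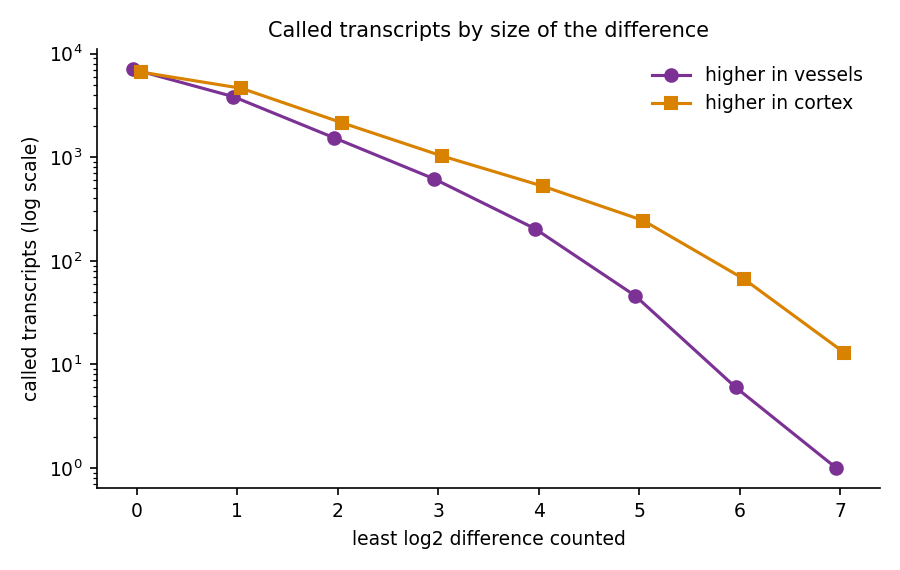
Number of called transcripts (log scale) whose log2 difference between vessels and cortex is at least the value on the horizontal axis, higher in vessels (purple circles) and higher in cortex (orange squares). The numbers are 7088 and 6649 with no least size, 205 and 526 at 4, and 6 and 67 at 6.

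The named transcripts were chosen as extremes among calls without overlap between the tissues in these same libraries. Their separation was therefore required, and their small p-values follow in part from the choice. Among transcripts higher in vessels, pp_76264 had the greatest log2 difference. Its values in the vessel libraries of experiments 1, 3 and 4 were 140.1, 437 and 273, against 0.215, 1.21 and 1.23 in the cortex libraries. Each vessel library lay more than 100 above every cortex library, although the vessel values themselves spread widely (284 ± 149 in vessels and 0.885 ± 0.581 in cortex, mean ± SD, n = 3 each). The ratio of means was 320.2 and the transcript was higher in vessels in 3 of 3 pairs. On the log2 scale the difference was 7.14 with an SE of 0.95 (limma adjusted p = 0.000494). With the 6 compared libraries alone its SE was 0.22. The log2 differences of the pairs were 6.86, 7.63 and 6.94 in experiments 1, 3 and 4.

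The transcript with the greatest rise in mean value, pp_216835, was abundant in both tissues. Vessel libraries of experiments 1, 3 and 4 held 1912, 1613 and 2032, against 441, 349.7 and 651 in cortex libraries. The groups did not overlap, with means of 1852 ± 216 in vessels and 481 ± 154 in cortex (SD, n = 3 each). Limma gave a log2 difference of 1.99 with an SE of 0.21 (adjusted p = 0.000169), and an SE of 0.22 with the 6 compared libraries alone. The difference was smallest in experiment 4 (1.64, against 2.11 and 2.20 in experiments 1 and 3), where the cortex value was highest.

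On the cortex side, pp_153514 had the greatest log2 difference of all transcripts called. Vessel libraries of experiments 1, 3 and 4 held 1.66, 0.961 and 0.648, against 1767, 1296 and 1148 in cortex libraries. It rested on 136, 78 and 50 reads in the vessel libraries, so its low level there was above the floor of 3 reads. Means were 1.09 ± 0.518 in vessels and 1404 ± 323 in cortex (SD, n = 3 each), a ratio of cortex to vessels of 1288. The log2 differences of the 3 pairs lay close together (-9.38, -9.37 and -9.45 in experiments 1, 3 and 4), and the mean was -9.40 (SE 0.43, limma adjusted p = 2.64e-05). With the 6 compared libraries alone the SE was 0.17.

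Transcript pp_216512 carried the greatest difference in mean value. Its values were 160.1, 201 and 163 in the vessel libraries of experiments 1, 3 and 4, against 7136, 4510 and 8308 in the cortex libraries. In cortex it took 0.640%, 0.420% and 0.807% of a library's signal in experiments 1, 3 and 4, and in vessels 0.0183%, 0.0229% and 0.0178%. The cortex mean was 38.1 times the vessel mean (175 ± 23.2 in vessels and 6651 ± 1945 in cortex, SD, n = 3 each). The log2 difference of -5.20 had an SE of 0.60 (limma adjusted p = 0.000227), and an SE of 0.29 with the 6 compared libraries alone. Each of the 4 named transcripts passed the threshold in all 22 alternatives, with adjusted p between 7.29e-90 and 0.0142 across limma, edgeR and DESeq2. The alternatives reuse the libraries on which these extremes were chosen, so this is given as a description.

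**Figure D3:**
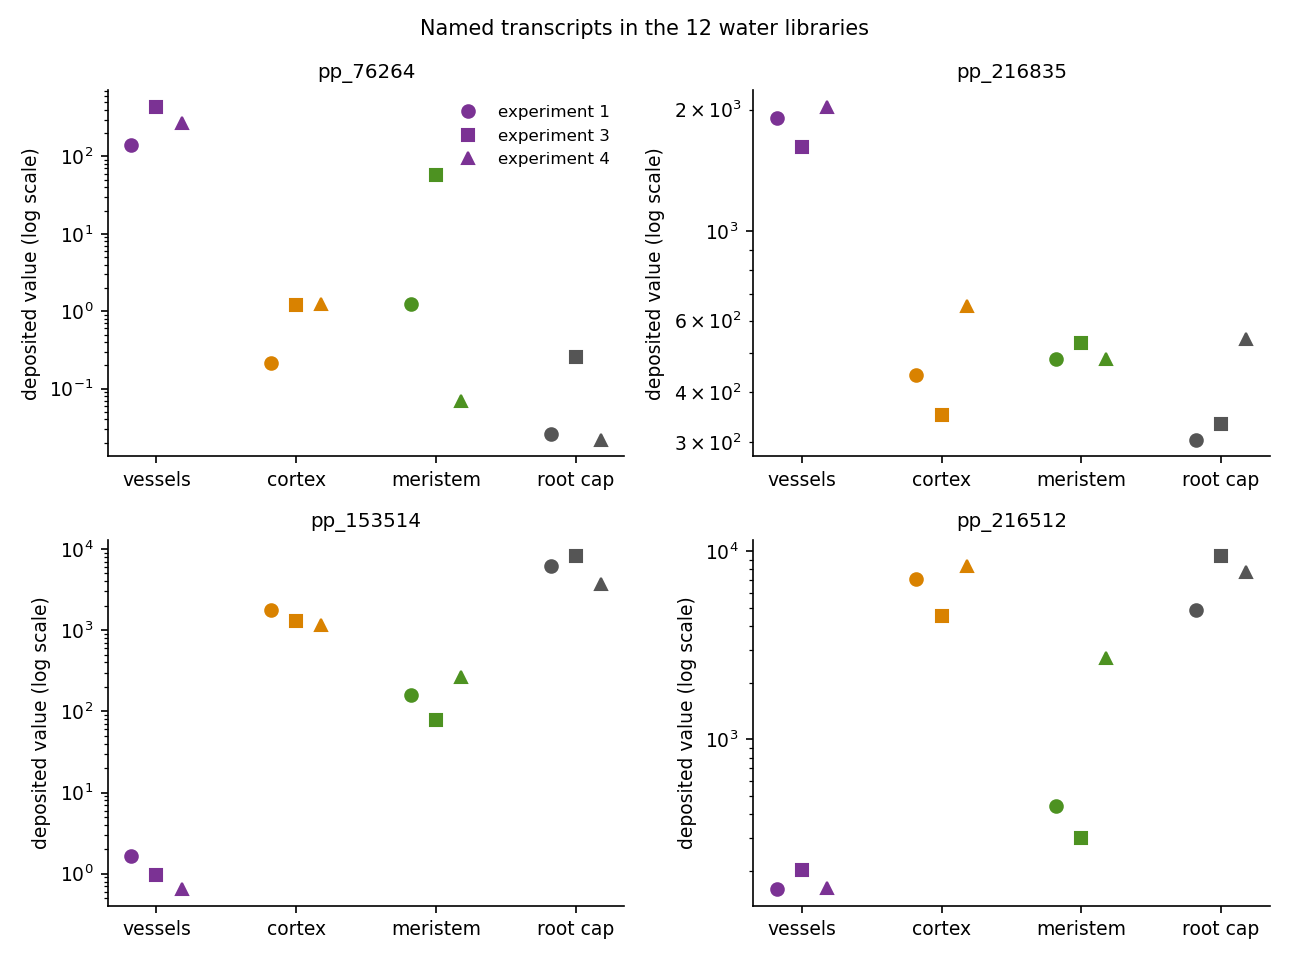
Deposited values (log scale) of the 4 named transcripts in the 12 water libraries, by tissue, with the marker shape giving the experiment. The upper panels show transcripts higher in vessels, pp_76264 and pp_216835, and the lower panels show transcripts higher in cortex, pp_153514 and pp_216512. Vessel and cortex points do not overlap in any panel, which the choice of these transcripts required. For pp_153514 root cap values (3706 to 8150) lie above those of cortex.

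The called transcripts carried unequal shares of the RNA signal. Transcripts higher in cortex made up 8.81%, 9.59% and 8.74% of the signal in the vessel libraries of experiments 1, 3 and 4, and 36.2%, 33.4% and 26.4% in the cortex libraries. Transcripts higher in vessels made up 14.9%, 17.8% and 17.8% in the vessel libraries and 4.09%, 4.61% and 5.21% in the cortex libraries. The cortex library of experiment 4 had the lowest cortex share and the highest vessel share of the 3 cortex libraries. These shares describe the lists, which were chosen on the same libraries. The 526 transcripts at least 4 higher in cortex alone took 9.04% to 13.3% of the cortex signal, and the 205 at least 4 higher in vessels took 1.76% to 2.76% of the vessel signal.

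**Figure D4:**
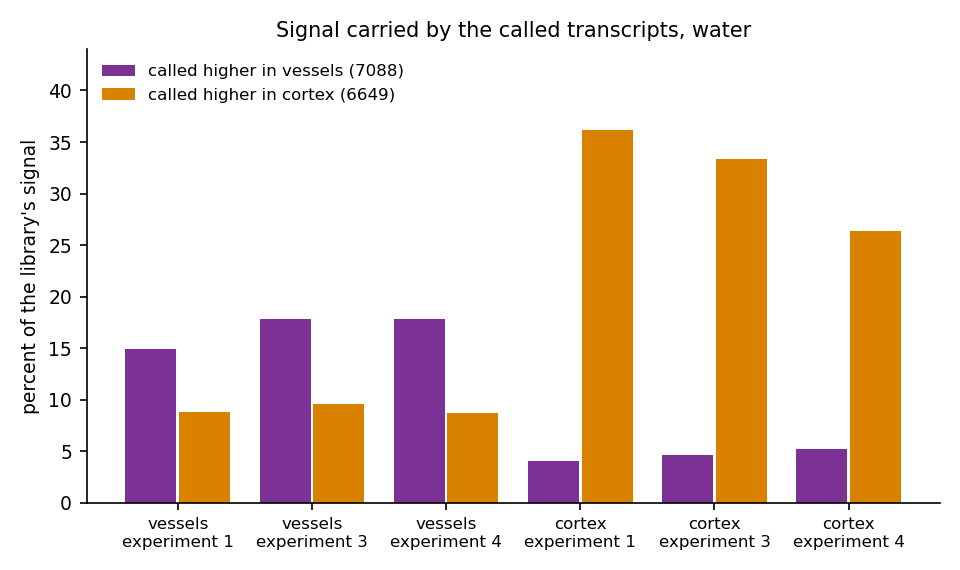
Percent of each library's signal carried by transcripts called higher in vessels (purple) and called higher in cortex (orange), in the 3 vessel and the 3 cortex libraries from water-treated seedlings. Orange bars stand at 8.74% to 9.59% in vessels and at 26.4% to 36.2% in cortex, and purple bars at 14.9% to 17.8% in vessels and at 4.09% to 5.21% in cortex.

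Higher abundance went with a cortex direction. Of the 1726 transcripts with a mean of at least 100 over both tissues, 8.29% were called higher in vessels and 25.4% higher in cortex. Among the 8386 with a mean under 2, 18.4% were higher in vessels and 13.8% in cortex. The percentage called in either direction lay between 32.2% and 34.1% across 5 levels. Without cortex library 4, 13.5% of the most abundant were called higher in vessels and 34.4% in cortex, and of those under 2, 26.0% in vessels and 13.1% in cortex. Values are not divided by transcript length, so these levels mix abundance and length. The shares by level were counted in the deposited scaling alone, and other scalings moved the split between directions.

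Signal was more concentrated in cortex. The 100 highest transcripts of a library took 16.1%, 14.3% and 16.1% of the signal in the vessel libraries of experiments 1, 3 and 4, against 17.7%, 17.3% and 18.1% in the cortex libraries. The vessel share was lower in 3 of 3 pairs, with a difference (vessels minus cortex) of -2.19 ± 0.705 percentage points (SD, n = 3 pairs; exact sign-flip permutation p = 0.25, 2-sided, the smallest p that 3 pairs allow). Between 57 and 72 transcripts exceeded a value of 1000 in vessel libraries and between 105 and 113 in cortex libraries. The number of transcripts at a value of at least 1 overlapped between the tissues. It was 38996 ± 300 in vessels and 38670 ± 1072 in cortex (SD, n = 3 each; exact sign-flip permutation p = 0.75), higher in vessels in 2 of 3 pairs. At a value of at least 0.1 it was 44694 ± 62.8 in vessels and 45689 ± 422 in cortex, lower in vessels in 3 of 3 pairs (exact sign-flip permutation p = 0.25).

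Few of the 47118 transcripts had reads in vessels alone or in cortex alone. Counts of 0 were themselves rarer in cortex: 85 transcripts had 0 reads in all 3 cortex libraries and 390 in all 3 vessel libraries. With at least 3 reads in each of the 3 libraries of a tissue and 0 reads in all 3 of the other, 22 transcripts had reads in vessels alone and 268 in cortex alone. Without cortex library 4, which leaves fewer cortex libraries to be at 0, the numbers were 81 and 283. Their levels were low, with a median mean value of 1.73 in vessels for the 22 and 0.943 in cortex for the 268, and 7 and 61 of them passed the filter on low values. The highest mean among them was 7.02 in vessels and 33.1 in cortex. A count of 0 allows a value of up to 0.0366 to 0.0430 in these libraries (3 reads, counting error only). Cortex libraries were the deeper ones, and the part of depth in these counts was not tested.

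The calls were made on these 3 pairs, so their agreement follows in part from the choice and is given as a description. Over all tested transcripts 60.9% had the same sign in 3 of 3 pairs. Of the 7088 higher in vessels, 7072 were higher in 3 of 3 pairs and in 6628 the 3 vessel values lay above all 3 cortex values, against 9904 (23.8%) of all tested transcripts with such a separation. Of the 6649 higher in cortex, 6631 were higher in cortex in 3 of 3 pairs and 6245 did not overlap, against 8240 (19.8%) of all tested. The median log2 difference of the transcripts higher in vessels was 1.12, 1.12 and 1.08 in experiments 1, 3 and 4. Of the transcripts higher in cortex it was -1.75, -1.47 and -1.15, nearest to 0 in the pair with cortex library 4.

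Calls made without an experiment were then read in the libraries of that experiment. The left-out pair was not wholly unused, because the filter on low values had been applied to all compared libraries. It required a value of 1 in 3 or more of them. A transcript under 1 in every library of its lower tissue passed only if each library of its higher tissue reached 1. Its direction in the left-out pair was then fixed in advance. Transcripts called higher in vessels without experiment 1 were higher in vessels in its pair in 97.5% of 4927 cases, those called without experiment 3 in 99.7% of 3328, and those called without experiment 4 in 88.8% of 6710. Over all tested transcripts the share higher in vessels was 53.6%, 56.2% and 53.7% in the pairs of experiments 1, 3 and 4. For transcripts called higher in cortex the shares were 99.1% of 4178, 99.9% of 3517 and 91.4% of 6993, against 46.3%, 43.7% and 46.3% of all tested. The pair of experiment 4 again gave the smallest differences relative to the other experiments, with a median of 1.01 against 1.21 in the calling experiments for vessels, and -1.04 against -1.55 for cortex. Transcripts at least 4 higher in vessels held their direction in each left-out pair (208 of 208, 190 of 190 and 217 of 217 in experiments 1, 3 and 4). For cortex it was 477 of 478, 506 of 506 and 584 of 584. For members of these lists that passed the filter through their higher tissue alone, this direction was required. How many did so was not counted, so the shares are given as a description.

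Some called transcripts had neighbouring numbers. The 7088 transcripts higher in vessels fell into 3841 runs of consecutive identifiers (longest 18), and the 6649 higher in cortex into 3283 runs (longest 19). Of 27713 tested pairs of consecutive identifiers, 83.6% had log2 differences of the same sign and 6937 (25.0%) had both members called. Among the 6937, 6613 (95.3%) had the same direction and 324 (4.67%) opposite directions. In 99 of the 324 the log2 differences of both members were at least 4 apart. No source used here states what consecutive numbers share, and whether the transcripts of a run belong to the same gene was not tested.

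Root cap and meristem libraries from water-treated seedlings, which the comparison of vessels with cortex did not use for its levels, placed the largest differences differently. The 526 transcripts at least 4 higher in cortex had median values of 2.08, 1.99 and 0.583 in the vessel libraries of experiments 1, 3 and 4 and 117, 93.2 and 59.6 in the cortex libraries. In root cap libraries their medians were 49.1, 70.3 and 83.6, within or just below the cortex range. Of the 526, 191 (36.3%) had a higher mean log2 level in root cap than in cortex, against 29.3% of all 6649 called higher in cortex. In the meristem the medians were 8.46, 3.86 and 19.0, between vessels and cortex. There 346 (65.8%) lay nearer to vessels than to cortex, against 80.4% of the 6649. In the 687 transcripts of such a list made without cortex library 4, 29.1% were higher in root cap than in cortex and 75.3% lay nearer to vessels in the meristem. The named transcript pp_153514 averaged 6002 ± 2226 in root cap and 166 ± 92.7 in meristem (SD, n = 3 each), and pp_216512 averaged 7336 ± 2293 and 1148 ± 1350.

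The 205 transcripts at least 4 higher in vessels were low in cortex, in root cap and in 2 of 3 meristem libraries. Their median values were 36.6, 54.5 and 61.1 in the vessel libraries of experiments 1, 3 and 4 and 0.287, 1.33 and 2.01 in the cortex libraries. Root cap medians were 0.577, 0.288 and 0.0981, above the cortex median in experiment 1 and below it in experiments 3 and 4. Of the 205, 164 (80.0%) had a lower mean log2 level in root cap than in cortex (61.3% of 292 without cortex library 4). Over all 7088 transcripts called higher in vessels the share was 46.0%. These levels are low in both tissues. The meristem medians were 0.502, 7.53 and 0.367, so the meristem library of experiment 3 held these transcripts at a level between vessels and cortex that the other meristem libraries did not show. Transcript pp_76264 followed this, with 1.25, 57.9 and 0.0688 in the meristem libraries, whereas pp_216835 had an even meristem level (498 ± 27.2, SD, n = 3). In cortex the 205 transcripts were lowest in library 1, and 37, 126 and 148 of them reached a value of 1 in cortex libraries 1, 3 and 4.

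**Figure D5:**
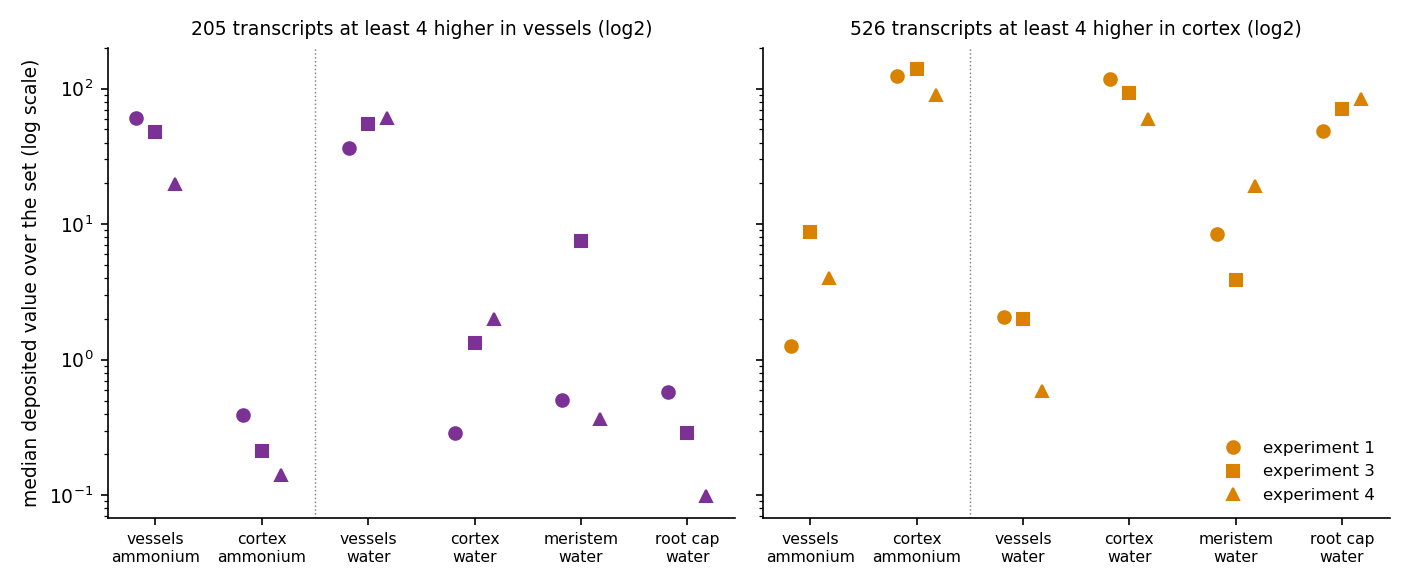
Median deposited value (log scale) over the 205 transcripts at least 4 higher in vessels (left panel) and the 526 at least 4 higher in cortex (right panel), in each library of the groups on the horizontal axis, with the marker shape giving the experiment. Ammonium libraries, which were not used to choose the lists, stand left of the dotted line. In them the vessel list has medians of 19.8 to 60.8 in vessels and 0.142 to 0.391 in cortex, and the cortex list 1.27 to 8.72 in vessels and 89.1 to 139 in cortex.

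The tissue difference was also present in the 6 vessel and cortex libraries of seedlings given 3 mM ammonium, none of which had entered the calls. Of the 7088 transcripts called higher in vessels with water, 6936 (97.9%) had a higher mean log2 level in vessels with ammonium, against 57.6% of all tested transcripts. In 5845 (82.5%) vessels were higher in 3 of 3 ammonium pairs, against 31.4% of all tested, and 5030 (71.0%) had 3 vessel values above all 3 cortex values, against 21.4%. Of the 6649 called higher in cortex, 6440 (96.9%) had a higher mean log2 level in cortex with ammonium, against 42.4% of all tested. In 4671 (70.3%) the tissues did not overlap, against 17.0% of all tested. Cortex was higher in 3 of 3 pairs in 5572 (83.8%), for which the share over all tested transcripts was not computed. Among the calls made without cortex library 4, 97.7% of those for vessels and 96.0% of those for cortex had the same direction with ammonium, and 58.2% and 61.8% did not overlap. For the 205 transcripts at least 4 higher in vessels the 2 tissues did not overlap in 205, with a median log2 difference of 4.67 with ammonium and 4.56 with water. For the 526 it was -4.31 with ammonium and -4.91 with water, and 509 did not overlap. By experiment 1, 3 and 4 the ammonium medians were 5.23, 5.12 and 3.99 for the 205, and -5.35, -3.46 and -4.11 for the 526. Both lists were chosen for large differences with water, so a smaller difference with ammonium can follow from the choice. A change of the vessel minus cortex difference with ammonium passed the threshold for 0 of 41660 transcripts in limma. The lowest adjusted p was 0.145, and 2772 transcripts were under 0.05 before adjustment. In edgeR's quasi-likelihood test it was also 0 (2997 under 0.05 before adjustment). With 3 libraries per group large shifts can go uncalled, so 0 calls do not show that the differences were equal. The greatest shift among the named transcripts was in pp_216512, with a log2 difference of -3.21 with ammonium and -5.20 with water (interaction 2.00, SE 0.91, limma adjusted p = 0.779). Its ammonium vessel libraries held 186, 2451 and 693 in experiments 1, 3 and 4, a wide spread, against 5927 to 6842 in the ammonium cortex libraries.

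Most transcripts were not shown to differ between vessels and cortex: 27923 (67.0%) missed the threshold. For 25181 transcripts (60.4% of those tested) the 95% interval of the log2 difference lay within 1 of 0, and for 6784 (16.3%) within 0.5, where called transcripts with small differences are included. The median half-width of the interval was 0.44 on the log2 scale. A further 42 transcripts had a mean log2 difference of at least 2 without passing the threshold, 8 higher in vessels and 34 higher in cortex. Transcripts higher in vessels had a median SD between libraries of 0.25 in vessels and 0.23 in cortex on the log2 scale. Transcripts higher in cortex had one of 0.22 in vessels and 0.38 in cortex, so their cortex levels were the most spread of these. Cortex library 4 enters this SD. The median values of these transcripts were 10.7, 9.81 and 6.82 in cortex libraries 1, 3 and 4, and an SD without library 4 was not computed.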

How the data were processed

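The authors deposited a normalized signal per transcript and library. Judged from the values, it is reads divided by a scaled library size: every value (100%) divided by the worth of 1 read was whole within 0.01 reads, and library sums ranged from 876315 to 1114510 in the 6 compared libraries. The submitters' processing notes name bcl2fastq and BWA. How reads were counted, against which transcripts, and how values were scaled and filtered is not given in the sources used here.

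Values were analysed as log2(value + 1) with limma 3.58.1 in R 4.3.3 (empirical Bayes with trend), with the experiment as a block, over the 12 water libraries, which share the estimate of the spread. The 41660 of 47118 transcripts that reached a value of 1 in 3 or more of the 6 compared libraries were kept, and p-values were adjusted by Benjamini-Hochberg with a threshold of 0.05. A transcript that passed through its higher tissue alone had to differ. The planned design assumed CPM, and the same log-scale test served for the signal. Same-numbered vessel and cortex libraries deviated together (r of deviations from the tissue means 0.31, 0.57 and 0.27 in experiments 1, 3 and 4, and -0.39 to 0.02 for other pairings). Deviations from a tissue mean cancel out within the tissue, so the low r of other pairings follows in part from the high r of same-numbered ones. The experiment numbers come from the titles. The ammonium interaction used the 12 vessel and cortex libraries with treatment and experiment number as a block. Recovered reads were tested with edgeR 4.0.16 (quasi-likelihood) and DESeq2 1.42.0 as alternatives, and procedures were tested on simulated reads. Plots used matplotlib 3.10.9.

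Named transcripts are, among called transcripts without overlap between the tissues, those with the greatest log2 difference and the greatest difference of mean value in each direction. The boundary of 4 on the log2 scale for large differences was chosen after values had been seen. The comparison and its lists were chosen with earlier results of these data known. Reads carry no molecular identifiers, and floors cover counting error only.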

Additional observations from a re-analysis of the deposited data

How the results depend on the processing

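Under the 22 alternatives, 0 transcripts called as deposited were called in the opposite direction. The experiment as a replicate block mattered little: without the block the count was 12166, and no named transcript lost its call. The 6 compared libraries alone gave 12455 with the block and 11291 without it, edgeR gave 12218 and DESeq2 14827. Library weights, whose estimation stopped before converging, gave 28464 (16014 higher in vessels and 12450 in cortex), and plain CPM scaling, chosen after seeing the data, gave 12469 higher in vessels. A filter at a value of 5 tested 21167 transcripts and called 7298 (3576 and 3722), of which 4668 differed by at least 1. At least 4 in favour of vessels and of cortex were 849 and 1353 with pseudocount 0.1, 40 and 252 with pseudocount 4, 1072 and 1629 in edgeR, and 1070 and 1677 in DESeq2. These scales treat low values differently. Pseudocount 4 left 4812 at 1 or more. Without a library or an experiment, the count ranged from 6845 to 18036 (3328 to 9676 higher in vessels, 3517 to 8360 in cortex), with 6451 to 10190 differing by at least 1, 159 to 292 at 4 or more in vessels and 432 to 687 in cortex. The number of transcripts at a value of at least 1, higher by 326 in vessels, was -81 to 734 without an experiment and -995 at a value of at least 0.1. The cause was not tested. The vessel minus cortex share of the top 100 transcripts ranged from -2.47 to -1.79 percentage points without an experiment, and was -0.747 for the top 10 and -4.16 for the top 1000. The interaction gave 0 calls in each of its alternatives.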
